A study of Mus musculus with 9 samples.

Results

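The RNA of 9 enzymes of the intestinal brush border was followed in cultured mouse epithelium. The genes were chosen by name as the major hydrolases and peptidases of this membrane: Sis, Lct, Anpep, Dpp4, Mep1a, Mep1b, Alpi, Ggt1 and Dpep1. All 9 were found by symbol among the 50600 genes of the deposited tables, and all 9 had a TPM (an abundance corrected for gene length that sums to the same value in every library) of at least 1 in at least 1 library, the limit for testing.

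Of the 9 libraries, 6 came from organoids of normal small intestine and 3 from tumoroids, and the design text of the series gives 3 mice for each tissue. The organoids were WT, labelled strain C57BL/6, and were kept for 24 hr in medium conditioned by other cultures, either tumoroids (T-cM) or WT organoids (WT-cM), 3 libraries each. The tumoroids were untreated, came from intestinal tumours of Apc1638N/+ mice with the strain label MIX, and were grown without R-spondin, whereas the organoid medium held it. Genotype, tumour origin, strain label, medium and treatment all separate the tumoroids from the organoids and cannot be told apart. For the 6 organoid libraries the titles and the treatment fields name opposite media. Groups are named here by title, as T-cM-titled or WT-cM-titled organoids, and should the treatment field be right, every direction between them is reversed. In bulk libraries such as these, fewer cells of a type and less RNA per cell cannot be told apart.

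The brush border is the carpet of microvilli on the apical face of enterocytes, the absorptive cells of the small intestine. Its hydrolases are anchored in that membrane with their active sites facing the lumen, where they finish the digestion of sugars and peptides and remove phosphate groups. Enterocytes acquire them as they leave the crypt and mature along the villus, so that these genes serve as markers of absorptive differentiation.

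Transcription factors of the HNF1, CDX, GATA and HNF4 families are known to act at promoters of this kind, and promoter sequences of Sis, Lct and Alpi are shown because the results turn on these 3 genes and their windows held the searched words of all 4 families between them. Each window runs from 250 bases before to 50 bases after the RefSeq start, 5′ to 3′ on the strand of the gene (GRCm38.p6; Sis at chr3:72967814-72968113, Lct at chr1:128328269-128328568 and Alpi at chr1:87101557-87101856, all on the minus strand). Capitals mark matches, on either strand, to GTTAAT (a half-site of HNF1), CATAAA or CAATAAA (CDX), GATAA (GATA) and CAAAGTCCA (HNF4), words that were chosen after these windows had been seen.
Sis: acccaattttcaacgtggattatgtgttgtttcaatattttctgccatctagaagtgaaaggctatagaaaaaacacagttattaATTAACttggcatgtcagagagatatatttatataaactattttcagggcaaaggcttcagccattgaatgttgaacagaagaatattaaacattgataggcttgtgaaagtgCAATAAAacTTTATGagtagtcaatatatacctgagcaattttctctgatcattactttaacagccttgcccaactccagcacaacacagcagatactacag
Lct: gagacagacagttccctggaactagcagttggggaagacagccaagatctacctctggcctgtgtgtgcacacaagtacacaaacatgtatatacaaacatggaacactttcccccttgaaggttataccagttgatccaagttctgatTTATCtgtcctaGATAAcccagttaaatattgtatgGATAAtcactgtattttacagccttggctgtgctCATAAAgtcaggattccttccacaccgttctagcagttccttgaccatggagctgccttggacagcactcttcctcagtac
Alpi: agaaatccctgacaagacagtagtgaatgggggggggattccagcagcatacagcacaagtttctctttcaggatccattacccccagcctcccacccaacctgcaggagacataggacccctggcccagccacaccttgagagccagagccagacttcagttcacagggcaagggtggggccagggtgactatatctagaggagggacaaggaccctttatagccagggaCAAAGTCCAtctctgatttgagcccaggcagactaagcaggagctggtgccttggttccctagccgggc
The Sis window held 1 HNF1 half-site and 2 CDX words, that of Lct held 1 CDX word and 3 GATA words, and that of Alpi held the HNF4 word 19 bases before the start. Among 32851 RefSeq windows of the same length, 7.1% held the HNF1 half-site, 15.6% a CDX word, 25.4% the GATA word and 0.475% the HNF4 word. Of the 8 members with a window in the table, the HNF1 half-site was found in 1, CDX words in 3, the GATA word in 4 and the HNF4 word in 1, counting all 4 windows of Ggt1. The windows of Anpep and Dpep1 held none of these words. A match is a description of the letters, not of a bound site.

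The libraries held between 16541635 and 25170966 reads counted on genes. Markers of epithelium (Epcam, Cdh1, Krt8, Krt18 and Vil1) summed to 7427 to 10740.0 TPM in organoids and 9469 to 11490.0 TPM in tumoroids, although Vil1, a microvillus protein gene, was lower in tumoroids (292 to 340.2 TPM against 821 to 1102 TPM) and Krt18 higher (2839 to 4050.3 TPM against 699 to 1329 TPM). The 6 enterocyte markers, among them the fatty acid binding protein genes Fabp1 and Fabp2, summed to between 36800.0 and 79630.0 TPM in organoids but to 518, 936 and 210.4 TPM in tumoroids 1, 2 and 3. Paneth cell markers summed to 12770.0 to 15850.0 TPM in organoids and to 5578, 670.1 and 3819 TPM in tumoroids, although Mmp7 among them was higher in tumoroids (811, 318 and 1754 TPM, against 138 to 221 TPM). Of the stem cell markers, Lgr5 had 15.5 to 36.8 TPM in tumoroids and at most 0.45 TPM in organoids, and Ascl2 had 82.6 to 119.7 TPM against at most 13.1 TPM. Olfm4, the third, had 4.31 to 38.6 TPM in tumoroids, 251 and 159 TPM in the organoid libraries numbered 1, and 13.6 to 28.6 TPM in the other organoid libraries. Summed stromal markers stayed at or below 2.76 TPM in every library, and the leukocyte gene Ptprc at or below 0.14 TPM. The macrophage gene Cd68 had 11.9, 16.6 and 58.3 TPM in tumoroids 1, 2 and 3 and at most 1.77 TPM in organoids, and Csf1r had 1.82, 15.6 and 3.30 TPM against at most 1.71 TPM. The part of these differences in the results below was not tested.

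The level of each enzyme was first ordered per gene length. In the 6 organoid libraries Sis had a mean of 2724 ± 661 TPM (SD, n = 6) and Alpi 2546 ± 949 TPM. Mep1b (341 ± 70.8 TPM), Anpep (309.7 ± 77.9 TPM), Dpep1 (220.1 ± 78.7 TPM) and Ggt1 (135 ± 36.1 TPM) formed a middle range. Dpp4 (70.8 ± 12.1 TPM), Lct (39.7 ± 19.6 TPM) and Mep1a (12.9 ± 5.53 TPM) were the 3 lowest. Neighbours in this order from Sis to Alpi and from Mep1b to Anpep differed by less than 1 SD of either gene, whereas Alpi in its lowest organoid library (1578 TPM) stood above Mep1b in its highest (433 TPM). The order from Ggt1 through Dpp4 and Lct to Mep1a was the same in each of the 6 organoid libraries.

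Sis and Alpi together made up 77.1% to 88.2% of the summed TPM of the 9 members in organoids. All 9 members together took 0.465% to 0.795% of all TPM in organoid libraries and 0.00891% to 0.0536% in tumoroids. In tumoroids the leading member was Mep1b in libraries 1 and 2 and Anpep in library 3, and Sis stood behind Mep1b, Alpi and Anpep in all 3, behind Mep1a in libraries 2 and 3, and behind Dpp4 in library 2. The loss of RNA in tumoroids was thus uneven over the set.

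**Figure D1:**
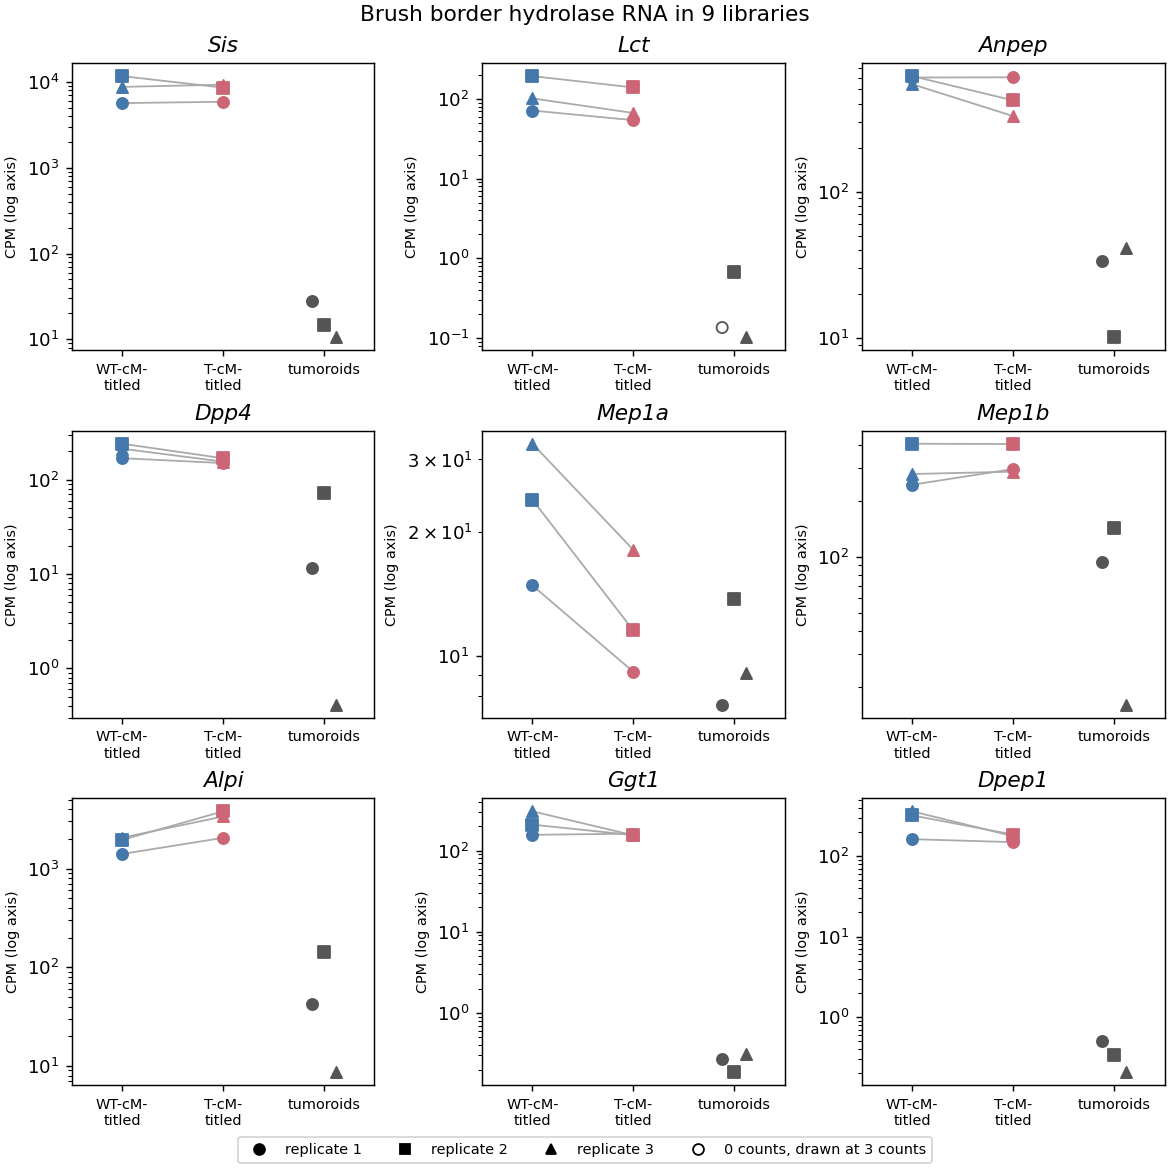
CPM (counts relative to the TMM-adjusted library size, log axis) of the 9 genes in each library, with the 3 groups on the horizontal axis, point shapes for the replicate number and grey lines joining same-numbered organoid libraries. The open point is tumoroid 1 for Lct, with 0 counts, drawn at the 0.136 CPM that 3 counts would give; every tumoroid lies below every organoid library for 8 of the 9 genes, the exception being Mep1a.

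The first comparison, between the organoid groups, asks what a day in the medium of tumour cells does to normal epithelium. In T-cM-titled organoids, 6 of the 9 enzymes were lower (Lct, Anpep, Dpp4, Mep1a, Ggt1 and Dpep1), Alpi was higher, and Sis and Mep1b did not pass the test. The changes were small. The largest were a 1.81-fold lower level of Mep1a and a 1.68-fold higher level of Alpi, and no member passed when a log2 fold change above 1 was also required, as 1.1% of all tested genes did. Of the 16208 genes tested, 10.1% were called, 5.05% lower and 5.03% higher, and the median log2 fold change was 0 over all genes and -0.41 over the 9 members. These calls come from edgeR's quasi-likelihood test with the replicate number as a block and Benjamini-Hochberg adjustment over all tested genes. The calls depend on the count-based test, the pairing and replicate 2. With the block kept, limma on log2(TPM + 1) or log2(TPM + 0.1) called none of the 9 genes and 0 of all 16208, with 4 and 3 members lower and 1 higher at an unadjusted p under 0.05, beside 2690 and 2553 of all genes. Nor was any of the 9 called by edgeR without the block (lowest adjusted p 0.82) or without both organoid libraries of replicate 2 (lowest adjusted p 0.16), where 0 and 1 of all 16208 genes were called. At an unadjusted p under 0.05, 4 members were lower and 1 higher in each of these 2 edgeR fits, beside 904 and 1557 of all 16208 genes in either direction. The log2 fold changes were close to those with all libraries and the block, for Mep1a -0.87 and -0.78, for Alpi 0.78 and 0.63 and for Dpep1 -0.71 and -0.57. With 3 pairs, an exact test of 1 gene alone cannot give a two-sided p below 0.25.

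Members were lower in all 3 pairs for 4 genes (Lct, Dpp4, Mep1a and Dpep1) and higher in all 3 for Alpi alone, against 22.3% and 18.9% of all tested genes. Only for Dpp4 did the 2 organoid groups not overlap, which held for 5.28% of all tested genes with the T-cM-titled group lower and for 5.12% with it higher.

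The disaccharidases Sis and Lct cleave dietary sugars. Sis encodes sucrase-isomaltase, which splits sucrose and the branch points of starch (GRCm38 chromosome 3, 72888557 to 72967863). It had 5694, 11754 and 8803 CPM in WT-cM-titled organoids 1, 2 and 3 and 5902, 8628 and 9350.2 CPM in T-cM-titled organoids. The groups overlapped, with pair 2 lower and pairs 1 and 3 slightly higher in the T-cM-titled library, and the log2 fold change was -0.09 ± 0.08 (SE, adjusted p = 0.55).

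Lct encodes lactase, the enzyme for milk sugar (chromosome 1, 128284756 to 128328318). Its level was 71.6, 193 and 102 CPM in WT-cM-titled organoids and 54.2, 139 and 66.7 CPM in T-cM-titled organoids. Each T-cM-titled library was below its own pair, while the groups overlapped and replicate 2 was the highest in both. The fit gave a log2 fold change of -0.48 ± 0.08 (adjusted p = 1.6e-04), so that the 2 disaccharidases did not share a call, although the difference between their changes was not tested.

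The exopeptidases Anpep and Dpp4 trim peptides from the amino end. Anpep, aminopeptidase N (chromosome 7, 79821803 to 79861059), had 603, 617 and 543 CPM in WT-cM-titled and 606, 421 and 329 CPM in T-cM-titled organoids. Pair 1 was level at a log2 difference of 0.01, and the decrease lay in pairs 2 and 3 (-0.55 and -0.72). The fitted log2 fold change was -0.41 ± 0.09 (adjusted p = 0.0032), and it lost its call with limma voom at a like fold (-0.40, adjusted p = 0.087) and without replicate 3 at a smaller one (-0.27, adjusted p = 0.197). Without replicate 1 it was -0.63.

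Dpp4, dipeptidyl peptidase 4, removes dipeptides ending in proline or alanine and also cleaves incretin hormones (chromosome 2, 62330073 to 62412231). It had 169, 241 and 213 CPM in WT-cM-titled and 150.2, 169 and 156 CPM in T-cM-titled organoids. Every T-cM-titled library was below every WT-cM-titled one, by a margin of less than 1 CPM between the nearest libraries, and the log2 fold change was -0.37 ± 0.08 (adjusted p = 0.0027). An antisense gene, Gm13561, overlaps the locus, and the strand setting of the counting is not given in the sources used here.

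The meprins are metalloproteases built from alpha and beta subunits, of which beta holds the complex in the membrane. Mep1a, the alpha subunit (chromosome 17, 43474324 to 43502812), had 14.8, 24.0 and 32.8 CPM in WT-cM-titled and 9.15, 11.5 and 18.1 CPM in T-cM-titled organoids. It was lower in each pair, with log2 differences of -0.70, -1.05 and -0.86, and the groups overlapped, with T-cM-titled library 3 above WT-cM-titled library 1. This amounted to a log2 fold change of -0.86 ± 0.12 (adjusted p = 7.3e-06).

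Mep1b, the beta subunit, had 243, 404 and 278 CPM in WT-cM-titled and 296, 403 and 286 CPM in T-cM-titled organoids. The groups overlapped, and the log2 fold change was 0.12 ± 0.08 (adjusted p = 0.40). Per gene length the beta subunit therefore exceeded the alpha subunit 24.8, 25.5 and 12.8 times in WT-cM-titled organoids and 48.8, 52.7 and 23.9 times in T-cM-titled organoids. The ratio rose in every pair, and it was not tested.

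Alpi encodes intestinal alkaline phosphatase, which removes phosphate from bacterial lipopolysaccharide and from nucleotides (chromosome 1, 87098002 to 87101606). Its level was 1404, 1949 and 2057 CPM in WT-cM-titled and 2046, 3799 and 3367 CPM in T-cM-titled organoids. Each T-cM-titled library was above its pair, and only T-cM-titled library 1 lay within the range of the other group. Alpi thus had a log2 fold change of 0.75 ± 0.07 (adjusted p = 4.3e-08). In TPM, Alpi was 0.788, 0.530 and 0.746 times the level of Sis in WT-cM-titled organoids and 1.11, 1.41 and 1.15 times in T-cM-titled organoids. The most abundant of the 9 transcripts was therefore Sis in each WT-cM-titled library and Alpi in each T-cM-titled library. Of the 50-base stretches in Alpi transcripts, 2.4% also occurred in another gene, 35 of them in its neighbour Akp3.

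**Figure D2:**
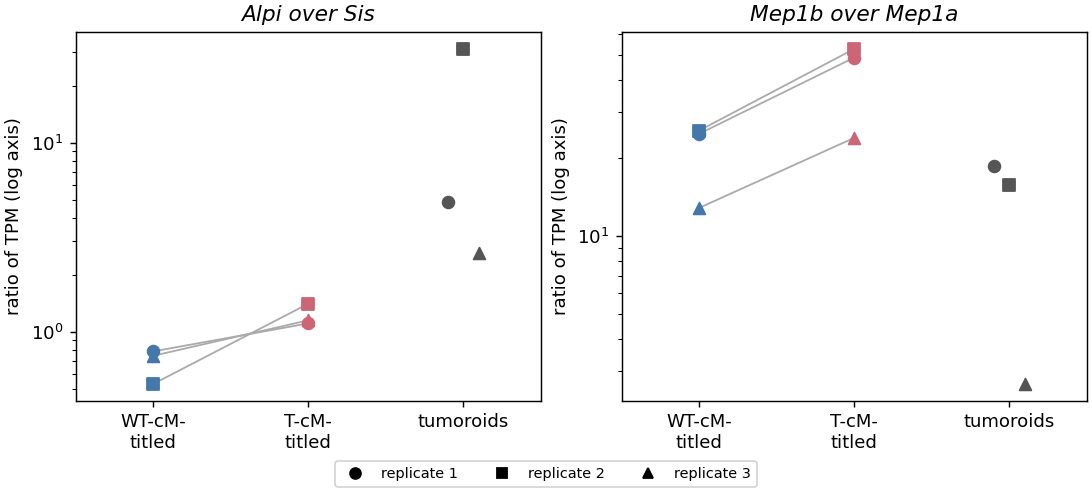
Ratio of TPM values (log axis) of Alpi to Sis (left) and of Mep1b to Mep1a (right) in each library, by group, with grey lines joining same-numbered organoid libraries. Alpi to Sis lies between 0.530 and 0.788 in WT-cM-titled organoids, between 1.11 and 1.41 in T-cM-titled organoids and between 2.61 and 31.2 in tumoroids; Mep1b to Mep1a falls to 2.67 in tumoroid 3.

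Ggt1 and Dpep1 act one after the other on glutathione outside the cell: gamma-glutamyltransferase 1 takes off the glutamate, and dipeptidase 1 splits the remaining cysteinyl-glycine. Both also process cysteinyl leukotrienes. Ggt1 (chromosome 10, 75561604 to 75586200) had 156, 208 and 304 CPM in WT-cM-titled and 162, 155 and 154 CPM in T-cM-titled organoids. The highest WT-cM-titled library was 1.95 times the lowest, against 1.05 times in the T-cM-titled group, and pair 1 showed no decrease. The log2 fold change was -0.44 ± 0.11 (adjusted p = 0.0073). Its call was lost in 9 of 13 alternatives, among them limma voom (-0.45, adjusted p = 0.136) and DESeq2 (-0.44, adjusted p = 0.44) at a like fold, and leaving out replicate 3 at a smaller one (-0.18, adjusted p = 0.47).

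Dpep1 (chromosome 8, 123186242 to 123201812) had 162, 321 and 361 CPM in WT-cM-titled and 149, 185 and 177 CPM in T-cM-titled organoids. It was lower in all 3 pairs, with log2 differences of -0.12, -0.80 and -1.03, and library 1 of the WT-cM-titled group lay among the T-cM-titled libraries. Its log2 fold change was -0.64 ± 0.10 (adjusted p = 8.4e-05), and DESeq2 did not call it at the same fold (-0.64, adjusted p = 0.122). Gm20388 overlaps the Dpep1 locus on the same strand, so that reads of the 2 genes may be split between them.

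For all 7 called members, pair 1 showed the smallest change in the called direction. Both organoid libraries of that number also had the lowest Sis, Lct, Dpp4, Mep1a, Alpi and Dpep1 levels of their group and the high Olfm4 given above. The part of this pair in the results was examined by leaving it out, after which the 6 members were called lower and Alpi higher in a fit that called 2872 of all 16208 genes, 1517 of them lower.

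**Figure D3:**
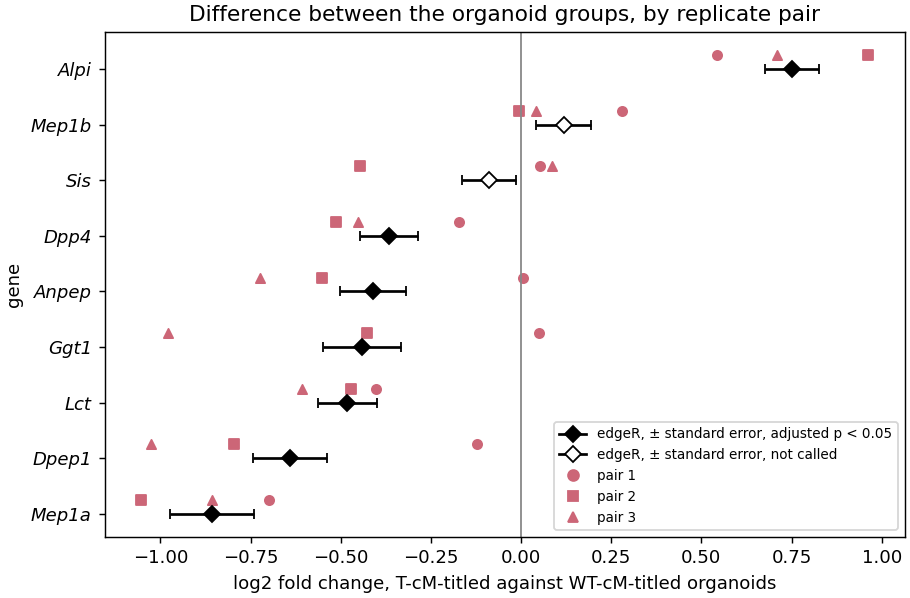
Log2 fold change between the organoid groups (horizontal axis, positive where T-cM-titled organoids were higher) for the 9 genes, as the fitted value with its standard error (diamonds, filled where the adjusted p was under 0.05) and as the difference in each of the 3 pairs (red shapes). Alpi lies to the right of 0 in all pairs at 0.54 to 0.96, Lct, Dpp4, Mep1a and Dpep1 to the left in all pairs, and pair 1 is near 0 for Anpep and Ggt1.

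Other enzymes of the same membrane did not move as the 9 members did. Of 16 further brush border enzymes written as a list, 14 were tested. Of these, 5 were called higher in T-cM-titled organoids, 2 lower and 7 neither, with a median log2 fold change of 0.23. Of all tested genes, 5.03% were called higher and 5.05% lower. Akp3, a second intestinal alkaline phosphatase, rose with Alpi: it had 304, 426 and 421 CPM in WT-cM-titled and 482, 1823 and 1330.3 CPM in T-cM-titled organoids, which is 1.49 ± 0.14 on the log2 scale (adjusted p = 1.5e-08). The 2 groups did not overlap for Akp3. Naaladl1, a dipeptidase-like peptidase, rose by 0.98 ± 0.10 (adjusted p = 7.6e-08), from 25.7, 195 and 178 CPM to 35.4, 437 and 393 CPM, with both libraries of replicate 1 far below the rest.

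Among the other enzymes with a call, Xpnpep2 (membrane aminopeptidase P) was higher by 0.66 ± 0.11 on the log2 scale and Enpep (glutamyl aminopeptidase) by 0.41 ± 0.08 (adjusted p = 2.5e-04 and 5.6e-04). Peptidases were thus found on both sides: Anpep and Dpp4 lower, Enpep and Xpnpep2 higher. Of 21 relatives by family or by action that lie outside the digestive set, 14 were tested. With a list median of 0.07, 3 were higher and none lower, beside 5.03% and 5.05% of all tested genes. The 3 were the cytosolic dipeptidase Cndp2 (0.78 ± 0.09, adjusted p = 7.3e-07), the lysosomal Dpp7 (0.46 ± 0.11, adjusted p = 0.0054) and the cytosolic aminopeptidase Npepps (0.28 ± 0.08, adjusted p = 0.019). None of the 14 was lower at an unadjusted p under 0.05 either, and limma voom and DESeq2 called 0 lower. Of 14 transcription factors of enterocyte genes, 1 was called, the epithelial factor Elf3 (0.26 ± 0.08, adjusted p = 0.032), and the median was 0.10. Over all tested genes 10.1% were called. No factor was called with the newer edgeR form, limma voom or DESeq2 or without replicate 3. Hnf4g, a nuclear receptor of enterocytes, was at 0.09 ± 0.07 (adjusted p = 0.50) and Cdx2, the intestinal homeobox factor, at -0.16 ± 0.08 (adjusted p = 0.21). As for the members, none of these list genes was called by edgeR without the block or without replicate 2, where 6 and 7 of them were higher and 0 lower at an unadjusted p under 0.05, beside the 904 and 1557 of all genes given above.

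The second comparison set the tumoroids against the mean of both organoid groups, which does not depend on which medium label is right. Of the 9 enzymes, 7 were lower in tumoroids and none higher, and Dpp4 and Mep1a did not pass the test. None was higher at an unadjusted p under 0.05, or with limma voom or DESeq2, which called 8 and 9 members lower. Ggt1 was lower 714-fold, Dpep1 638-fold, Sis 473-fold and Lct 378-fold. Alpi was lower 36.5-fold, Anpep 18.2-fold and Mep1b 3.79-fold. By the same edgeR test over all 9 libraries and without a block, 50.4% of all tested genes were called, 20.8% lower and 29.6% higher. The median log2 fold change was 0.16 over all genes and -5.19 over the members. All 7 also passed with a log2 fold change above 1, as did 12.1% of tested genes in the lower direction. Every tumoroid library lay below every organoid library for 8 members, against 20.2% of tested genes, and above every one for no member, against 25.6%. On the deposited TPM with limma, 79.8% of called genes were higher in tumoroids against 58.7% in the count fit, and the median of all genes shifted to 0.52, while 8 members were called lower and none higher.

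Ggt1 had 6, 5 and 9 counts in tumoroids 1, 2 and 3, or 0.272, 0.186 and 0.309 CPM, where 3 counts correspond to 0.103 to 0.136 CPM. The lowest organoid library exceeded the highest tumoroid 499-fold. The log2 fold change of -9.48 ± 0.34 (adjusted p = 3.4e-07) placed Ggt1 at rank 12 from the lowest of all 16208 tested genes. Its partner Dpep1 had 11, 9 and 6 counts (0.499, 0.335 and 0.206 CPM) and a log2 fold change of -9.32 ± 0.43 (adjusted p = 9.6e-07), at rank 15. Both enzymes of extracellular glutathione breakdown were thus close to the limit of counting in all 3 tumoroid cultures, with little spread between them.

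Sis kept 615, 392 and 308 counts in tumoroids (27.9, 14.6 and 10.6 CPM), all above the limit of counting and all below every organoid by at least 204-fold. Its log2 fold change was -8.88 ± 0.55 (adjusted p = 3.2e-06). Lct had 0, 18 and 3 counts, and tumoroid 1 with 0 counts allows at most 0.136 CPM, in counting error only. The log2 fold change of Lct was -8.56 ± 0.83 (adjusted p = 3.0e-05). Over the alternatives it ran from -10.65 without tumoroid 2, the library with 18 counts, to -5.03 on log2(TPM + 1), with a call in each.

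Alpi differed between the tumoroid cultures as well as from the organoids. It had 42.5, 143 and 8.62 CPM in tumoroids 1, 2 and 3, with the order 2, 1, 3, against a lowest organoid library of 1404 CPM. Its log2 fold change was -5.19 ± 0.84 (adjusted p = 6.9e-04), and -6.55 without tumoroid 2. Since Sis fell further, the ratio of Alpi to Sis in TPM was 4.86, 31.2 and 2.61 in tumoroids.

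Dpp4 had 11.5, 72.8 and 0.412 CPM in tumoroids 1, 2 and 3, a 176.5-fold range, the widest of the 8 members with counts in all 3 tumoroids. All 3 libraries were below all 6 organoid libraries, by 2.07-fold between the nearest. The log2 fold change of -2.68 ± 1.03 missed the threshold (adjusted p = 0.054). It passed in 8 of 19 alternatives, among them limma voom (-4.75, adjusted p = 0.0062), DESeq2 (-2.74, adjusted p = 0.022), leaving out tumoroid 2 (-4.97, adjusted p = 0.0026) and leaving out tumoroid 3 (-2.11, adjusted p = 0.013).

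Anpep ranked the tumoroids in another order, with 33.7, 10.1 and 40.9 CPM in cultures 1, 2 and 3. Its log2 fold change was -4.19 ± 0.46 (adjusted p = 6.6e-05). Anpep was lowest in the culture where Dpp4 was highest, and the TPM of Anpep was 4.48, 0.212 and 154 times that of Dpp4, against 3.22 to 6.16 times in organoids. These ratios were not tested.

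By the fitted log2 fold change over the tumoroid cultures together, the meprins were the members least lowered in tumoroids. In tumoroid 3 alone this did not hold for Mep1b, with 16.04 CPM against an organoid mean of 318 CPM. Anpep there had 40.9 CPM against an organoid mean of 520 CPM. Mep1b had 93.6, 143 and 16.04 CPM, and its log2 fold change was -1.92 ± 0.55 (adjusted p = 0.016). The call was lost at a like fold without the organoid libraries of replicate 2 (-1.71, adjusted p = 0.067) and when same-numbered organoid libraries were summed (-1.95, adjusted p = 0.054), and the value was -2.56 without tumoroid 2. The lowest organoid library exceeded the highest tumoroid, number 2, by 1.71-fold in CPM.

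Mep1a had 7.61, 13.8 and 9.07 CPM in tumoroids, within or just below the range of T-cM-titled organoids (9.15 to 18.1 CPM). The log2 fold change was -0.79 ± 0.32 (adjusted p = 0.066), and it was -1.23 with WT-cM-titled organoids as the only reference (adjusted p = 0.022) and -0.35 with T-cM-titled ones (adjusted p = 0.47). It also passed with DESeq2 (-0.85, adjusted p = 0.027) and without tumoroid 2 (-1.09, adjusted p = 0.034) or without the organoid libraries of replicate 1 (-1.07, adjusted p = 0.018). On the TPM scale it was -0.23 (adjusted p = 0.49).

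Tumoroid 2 had the highest level of Lct, Dpp4, Mep1a, Mep1b and Alpi of the 3 cultures, and tumoroid 3 the lowest of Sis, Dpp4, Mep1b, Alpi and Dpep1. The sum of the 6 enterocyte markers, 936 TPM in tumoroid 2, 518 in tumoroid 1 and 210.4 in tumoroid 3, ran in the order of Dpp4, Mep1b and Alpi. The 3 goblet cell markers Muc2, Tff3 and Fcgbp summed to 1328, 334 and 1388 TPM in tumoroids 1, 2 and 3, the order of Anpep, and most of that sum was Tff3 (1257, 285 and 1293 TPM). The Paneth sum given above and the enteroendocrine sum (778, 99.3 and 183 TPM) were lowest in tumoroid 2 as well. The part of the cell types in these differences was not tested.

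The other brush border enzymes were lower in tumoroids too, 13 of 14 against 20.8% of all tested genes, with a median log2 fold change of -3.87. The median was -3.80 when the 2 genes with 0 counts in all tumoroids were set at the bound that 3 counts per library give. The calls with the smallest p in the lower direction included Asah2, a neutral ceramidase (-4.04 ± 0.26, adjusted p = 3.8e-06), Treh, which splits trehalose (-6.12 ± 0.40, adjusted p = 4.3e-06), Akp3 (-7.07 ± 0.65, adjusted p = 2.3e-05) and the starch-digesting Mgam (-2.66 ± 0.32, adjusted p = 1.1e-04). The exception was Nt5e, a 5′-nucleotidase of the cell surface, which had 4 to 20 counts in organoids and 314, 1662 and 618 counts in tumoroids. Its log2 fold change was 5.85 ± 0.52 (adjusted p = 1.9e-05). It reached the TPM limit for testing only through the tumoroids, where it was high (5.42 to 26.8 TPM, against 0.06 to 0.25 TPM in organoids). The neighbouring phosphatases Alpi and Akp3, higher together in T-cM-titled organoids, were thus lower together in tumoroids.

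**Figure D4:**
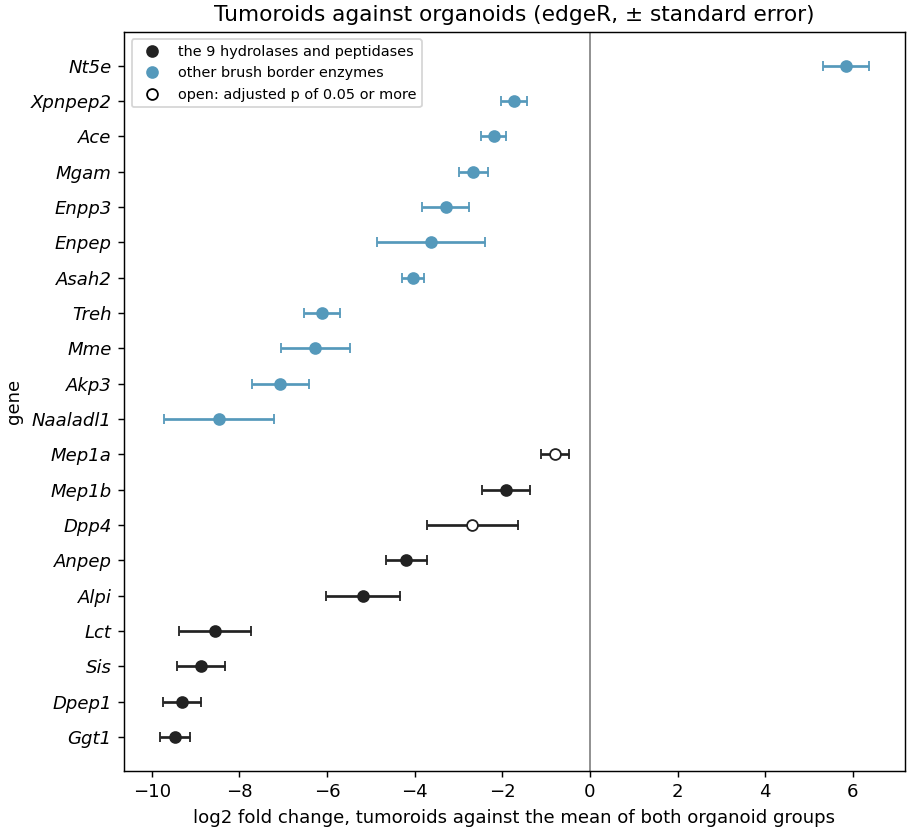
Log2 fold change of tumoroids against the mean of both organoid groups (horizontal axis) with its standard error, for the 9 genes (black) and 11 of the other brush border enzymes with counts in tumoroids (blue), filled where the adjusted p was under 0.05. The 9 genes run from -9.48 for Ggt1 to -0.79 for Mep1a, and Nt5e alone lies to the right of 0, at 5.85.

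Of the 14 relatives tested, 7 were lower in tumoroids, 1 higher and 6 neither, with a median of -0.42. Of all tested genes, 20.8% were called lower and 29.6% higher. On the deposited TPM the imbalance among the relatives was gone, with 3 called lower and 3 higher by limma at either pseudocount. Cndp2 fell by 3.73 ± 0.33 on the log2 scale (adjusted p = 1.9e-05), the aminopeptidase Xpnpep1 fell by 1.05 ± 0.11 (adjusted p = 5.6e-05), the aminopeptidase Lap3 fell by 1.18 ± 0.17 (adjusted p = 3.9e-04) and the prolidase gene Pepd fell by 0.79 ± 0.17 (adjusted p = 0.0039). The lysosomal alpha-glucosidase Gaa, a relative of sucrase-isomaltase, was higher (0.96 ± 0.14, adjusted p = 4.0e-04), from 41.0 to 58.2 CPM in organoids to 91.4, 105 and 93.6 CPM in tumoroids. Sis and its lysosomal relative thus changed in opposite directions.

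Among the 14 transcription factors, 6 were lower, 5 higher and 3 neither, with a median of -0.34. Over all tested genes the shares called were 20.8% lower and 29.6% higher. Hnf4g was lower (-4.65 ± 0.39, adjusted p = 1.3e-05), with 26.4, 29.4 and 11.5 CPM in tumoroids and 432 to 739.6 CPM in organoids. The zinc finger factors Gata6 and Gata4 were lower (log2 fold changes -1.30 ± 0.16 and -1.82 ± 0.26, adjusted p = 1.1e-04 and 3.1e-04). Prdm1, a repressor known from the suckling intestine, was higher (2.93 ± 0.47, adjusted p = 6.2e-04), and Isx, a homeobox factor, had 0 to 3 counts in organoids and 23, 33 and 99 in tumoroids. Isx reached the TPM limit for testing only through the tumoroids (1.9 to 6.79 TPM, against at most 0.17 TPM in organoids). Cdx2 was at -0.39 ± 0.24 (adjusted p = 0.21), and on the TPM scale its direction turned.

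The genes whose pattern over the 9 libraries was nearest to each member were named by the root mean square difference of log2 CPM. Each gene was centred on its own mean, and a small constant was added to every CPM before the logarithm. For Ggt1 the nearest of all tested genes was Dpep1 and for Dpep1 it was Ggt1, at a difference of 0.235 log2 units. The tumoroid values of Ggt1 (0.186 to 0.309 CPM) and Dpep1 (0.206 to 0.499 CPM) lay below the added constant, which narrows differences among them. Outside the set, Gsta1, a glutathione S-transferase, came next to Ggt1 (0.291), and Scin, an actin-severing protein gene, next to Dpep1 (0.355). Sis was nearest to Adh1, an alcohol dehydrogenase gene (0.307), and then to Fabp2 (0.404), and Lct to the glucose transporter Slc2a2 (0.375) and the cytochrome Cyp3a11 (0.478).

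Anpep was nearest to Clca1 (0.186) and Zg16 (0.26), both known as secreted products of goblet cells, and no member came closer to it than Mep1b at 1.57. Dpp4 was nearest to the export pump Abcc2 (0.498), Alpi to the amine oxidase Maob (0.46) and the nuclease Dnase1 (0.507). Mep1a (Dcst2, 0.225, and Gm43223, 0.269) and Mep1b (Malrd1, 0.2, and Cth, 0.224) were closer to genes outside the set than to each other (1.19). Every member except Ggt1 and Dpep1 likewise had a closer gene outside the set, where far more genes could be nearest. The same 9 libraries enter every one of these differences.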

How the data were processed

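RNA-sequencing libraries of 6 organoid and 3 tumoroid cultures were analysed from 2 deposited tables. Paired-end reads had been mapped by the authors with STAR on mm10 and Gencode genes, and raw counts per gene were deposited. The authors also deposited TPM, which corrects for gene length and library total. The counting tool, the strand setting and the lengths used for TPM are not given in the sources used here.

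Groups and replicate numbers were taken from the titles. The 16208 genes reaching a TPM of 1 in any library were tested in R 4.3.3 with edgeR 4.0.16 (TMM, quasi-likelihood F test, form before version 4), called at a Benjamini-Hochberg adjusted p under 0.05. CPM are counts scaled to the TMM-adjusted library size. The organoid groups were compared over 6 libraries, blocking on the replicate number, and tumoroids with the mean of both organoid groups over 9 libraries without one. The block follows the study's sample effect and the 3 organoid mice. Deviations of same-numbered organoid libraries from their group means correlated across genes at 0.688, 0.497 and 0.700 in pairs 1, 2 and 3, against a mean of -0.304 between different numbers. Genes are not independent replicates, and p-values measure the spread between these cultures. In the tumoroid comparison the 6 organoid libraries entered as separate ones although same-numbered ones correlated. The p-values of that comparison therefore do not measure the spread between mice. With same-numbered organoid libraries summed, 6 members were called lower there instead of 7.

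The 9 genes and all lists were chosen with earlier results of these data known. Of each list, up to 5 genes with the smallest p among those called were to be named, with the 2 genes outside the set nearest to each member. Hnf4g, Cdx2 and the genes of the other comparison are named beside them after their values were seen. A gene that this rule names is not reported here by name or value. Alternatives were limma voom (limma 3.58.1), DESeq2 1.42.0, the newer edgeR form, upper-quartile and RLE factors, testing without the TPM filter, edgeR's filterByExpr, limma on log2(TPM + 1) and log2(TPM + 0.1), another use of the block, other organoid references, the study's fold threshold and each replicate left out. The tests were run first on simulated data with planted changes. Promoter windows came from RefSeq (GRCm38.p6), where 8 members matched by symbol, and gene positions from a Gencode annotation of GRCm38. Sequences of the encoded proteins were not analysed here. A floor of 3 counts per library (0.103 to 0.204 CPM) covers counting error only, as PCR copies cannot be told from separate molecules.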

Additional observations from a re-analysis of the deposited data

How the results depend on the processing

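Between the organoid groups, the count of 6 members lower and 1 higher went to 0 and 0 without the replicate block, with limma on log2(TPM + 1) and on log2(TPM + 0.1), and with the log2 fold threshold of 1. With the replicates left out in turn it ranged from 0 to 6 lower and from 0 to 1 higher. The 9 list genes higher and 2 lower likewise went to 0 and 0 without the block and with both TPM fits, and to 1 and 0 with the threshold. The 2 lower became 1 with the newer edgeR form, DESeq2 and filterByExpr and 0 with limma voom, and leaving out replicates gave 0 to 4 lower and 0 to 13 higher. Sis (-0.09) turned to a log2 fold change of 0.074 without replicate 2 and was at -0.19 without replicate 3. No other member changed direction. All genes called numbered 1634, against 1048 with the newer edgeR form, 581 with limma voom, 783 with DESeq2, 0 without the block and in both TPM fits, 179 with the threshold, and 1 to 2872 with replicates left out. Upper-quartile factors made 43.9% of calls higher, against 49.9%. In tumoroids, Sis, Lct, Anpep, Alpi, Ggt1 and Dpep1 kept direction and call in each of 19 alternatives, the list genes higher went from 7 to 4 with the threshold and to 10 in both TPM fits, where those lower went from 26 to 21, and all genes called ranged from 5363 to 9766 against 8165. Adding the replicate block there called Dpp4 (-3.51, adjusted p = 0.029) and Mep1a (-0.75, adjusted p = 0.022) and changed no other member's call, while neither was called with same-numbered organoid libraries summed (-2.74 and -0.91, adjusted p = 0.129 and 0.081), although tumoroid and organoid numbers share no mouse in the labels (correlations of 0.209, 0.154 and -0.048). The cause of these changes was not tested. Depth limits the tumoroid values of Lct, Ggt1 and Dpep1, which rest on 0 to 18 counts a library. Lct, Ggt1 and Dpep1 also reached the TPM limit for testing only through the organoid libraries.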
